A study of Homo sapiens with 12 samples.

Results

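The genes described here encode the core of the spliceosome, the machine that removes introns from pre-mRNA. They are 56 genes named by a fixed list of small nuclear ribonucleoprotein (snRNP) proteins and the factors that act with them, and all 56 were found among the 17508 genes of the count table. All 56 had exon counts, and 55 also had intron counts. SF3B5, whose annotated gene on chromosome 6 of GRCh38 (144094884 to 144095573, - strand) is a single exon, had no intron entry.

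The cells are labelled as TYK-nu, an ovarian cancer line, and as high-grade serous adenocarcinoma. Some epithelial markers were present and others at or near 0, and some endothelial markers were high, with values given below. They received 15 μM cisplatin, a platinum drug that cross-links DNA, or DMSO, its solvent control. Treatment lasted 24 h or 72 h, which makes 4 groups of 3 libraries each, 12 libraries in all, from 1 cell line at 1 dose. Poly(A) RNA was sequenced, and the authors counted read pairs on the exons and on the introns of each gene, so that the ratio of exon to intron counts could be followed as a measure of splicing.

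The spliceosome is built from RNA-protein particles named after their small nuclear RNAs. The U1 particle reads the 5′ splice site, and the U2 particle, with the SF3A and SF3B protein groups, holds the branch point. The U4/U6.U5 tri-snRNP then joins. Rings of Sm proteins sit on most of these RNAs, and a related LSm ring sits on U6. The PRPF19 complex and a series of RNA helicases turn the assembled particle into the active enzyme and later take it apart. Reads from an intron come from RNA that still holds that intron, so a lower exon/intron ratio can reflect fewer exon reads, more intron reads or both.

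The main observation was a difference with time. Exon counts of most of these genes were lower at 72 h than at 24 h, in DMSO and in cisplatin alike. Cisplatin against DMSO at the same time called none of them in the main edgeR tests of exon counts, intron counts or ratio. Other fits, described below, did call some. In exon counts at 72 h these were PRPF8 and SF3B6. The study's logistic regression of the ratio called 14 genes at 24 h and 5 at 72 h. To show what stands in front of some of these genes, the promoter stretches of the 3 genes with the largest mean fall among those with a promoter entry (DDX46, SNRPF and SNRPA1, with U2AF1 left out for its few exon counts) and of SF3B6, with the largest mean rise, are given 5′ to 3′ on the strand of the gene (RefSeq, GRCh38.p14). Capitals mark, on either strand, the ETS core CCGGAAG, the promoter element known as the GC box (here GGGCGG) or the letters of the CCAAT box. Bases inside the annotated gene were left out at the 3′ end, 8 for DDX46, 34 for SNRPA1, 47 for SF3B6 and 0 for SNRPF.
DDX46, chr5:134758529-134758770, + strand: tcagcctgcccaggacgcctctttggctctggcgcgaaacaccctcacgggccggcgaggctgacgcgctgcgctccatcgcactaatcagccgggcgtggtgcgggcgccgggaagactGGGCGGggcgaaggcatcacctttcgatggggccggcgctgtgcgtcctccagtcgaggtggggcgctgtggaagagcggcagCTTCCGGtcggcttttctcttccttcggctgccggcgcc
SNRPF, chr12:95858702-95858951, + strand: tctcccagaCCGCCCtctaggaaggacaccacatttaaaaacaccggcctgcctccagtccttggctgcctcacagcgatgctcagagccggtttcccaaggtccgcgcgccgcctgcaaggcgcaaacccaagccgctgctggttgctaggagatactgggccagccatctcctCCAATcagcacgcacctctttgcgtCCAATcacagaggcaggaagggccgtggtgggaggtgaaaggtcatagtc
SNRPA1, chr15:101295283-101295498, - strand: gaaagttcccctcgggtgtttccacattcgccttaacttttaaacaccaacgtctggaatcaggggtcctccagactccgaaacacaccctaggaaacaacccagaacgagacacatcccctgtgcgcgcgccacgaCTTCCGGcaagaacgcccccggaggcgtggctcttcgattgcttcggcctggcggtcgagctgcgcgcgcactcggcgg
SF3B6, chr2:24076374-24076576, - strand: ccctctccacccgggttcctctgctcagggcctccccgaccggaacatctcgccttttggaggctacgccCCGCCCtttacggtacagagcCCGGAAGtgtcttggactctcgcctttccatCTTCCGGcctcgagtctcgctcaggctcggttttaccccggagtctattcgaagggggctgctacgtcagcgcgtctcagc

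Over the 250 bases before the RefSeq start, 51 of the 56 genes had a sequence. The ETS core, the letters bound by ETS-family factors, was found in 24 of them (47.1%), against 8.82% of the promoters of all 27305 genes and 17.1% of those of the 8504 genes that were tested for exon counts and had an entry. DDX46 held it 40 bases before its RefSeq start and SNRPA1 106 bases before. These distances include the bases left out of the printed stretches. SF3B6, which did not fall, held it at 121 and 152 bases, and SNRPF held none in its stretch but 2 CCAAT boxes at 45 and 70 bases. Among the 35 genes lower at 72 h in both treatments and with a promoter sequence, 17 held the core (48.6%). The GC box was found in 62.7% of the 51 promoters and in 69.4% of those of the tested genes, the CCAAT box in 37.3% and 35.4%. The E-box CACGTG was found in 3.92% and 9.15%, the NRF1 motif in 3.92% and 2.07%, and the TATA box TATAAA in 1 of the 51 and in 4.92%. The YY1 core was in 0 of the 51 stretches and in 0.623% of those of the tested genes. These are matches of letters on both strands, and each motif was counted whether or not it shared bases with another. Binding was not measured.

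Together, the 56 genes took a smaller part of the library at the later time. Their exon counts made up 1.103, 1.095 and 1.090% of all exon counts in the 3 DMSO libraries at 24 h and 1.088, 1.117 and 1.1005% in the cisplatin libraries. At 72 h the values were 0.825, 0.819 and 0.819% in DMSO and 0.845, 0.822 and 0.824% in cisplatin. The libraries of the 2 times did not overlap, and those of the 2 treatments differed by little. Intron counts were 2.98% ± 0.20 (SD, n = 3) of the genes' exon and intron counts in DMSO at 24 h and 3.24% ± 0.30 (SD, n = 3) in cisplatin. They were 3.498% ± 0.014 (SD, n = 3) in DMSO and 3.72% ± 0.16 (SD, n = 3) in cisplatin at 72 h. The treatments overlapped at 24 h, and at 72 h the cisplatin libraries (3.57 to 3.89%) lay above the DMSO libraries (3.49 to 3.51%). Over all genes, the intron share was 6.49% and 6.75% at 24 h and 6.81% and 7.03% at 72 h in the same order. There too the treatments overlapped at 24 h. At 72 h the cisplatin libraries (6.87 to 7.17%) lay above the DMSO libraries (6.77 to 6.86%), so this separation is not particular to the 56 genes. The share of exon counts rests on the abundant genes, so each gene was tested on its own.

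**Figure D1:**
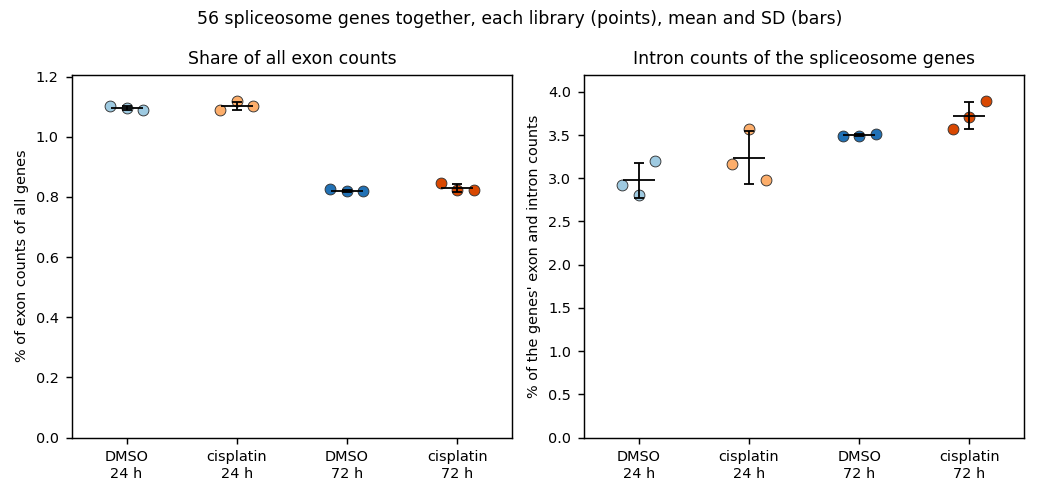
Share of the 56 spliceosome genes in all exon counts (left, %) and share of intron counts in their own counts (right, %) in each of 12 libraries, with the mean and SD of each group of 3. The exon share is near 1.1% at 24 h and near 0.82% at 72 h with either treatment, and the intron shares of the cisplatin and DMSO libraries overlap at 24 h and do not at 72 h, where all 3 cisplatin libraries lie higher. The intron share over all genes, not drawn, separates in the same way.

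Library totals ran from 18526830 to 68753262 counts, and the 2 deepest were libraries of cisplatin at 72 h. Markers of the labelled cell type were checked as counts per 1000000 exon counts (CPM). The epithelial and serous markers PAX8, SOX17, KRT7 and EPCAM were at most 0.0751, 0, 0.3004 and 1.69 CPM in any library. KRT18 was between 133 and 179.7 CPM and MECOM between 109 and 127 CPM, with KRT8 between 11.01 and 34.6 CPM and WT1 between 1.58 and 4.16 CPM. The endothelial genes PECAM1 and CDH5 reached 1357 to 2484 and 652 to 1038 CPM, while VWF was at most 1.20 CPM. The levels of PAX8, SOX17, KRT7, EPCAM, PECAM1 and CDH5 go against the label, those of KRT18, KRT8 and MECOM do not, and the identity of the cells was not tested. The sum of the 3 endothelial markers was between 3406 and 3464 CPM in DMSO at 24 h and between 2013 and 2134 CPM at 72 h. It was 3352 to 3437 and 2172 to 2366 CPM in cisplatin. The sum of the 3 leukocyte markers, which is nearly all CD68, was between 321 and 370.4 CPM in DMSO and 342 and 377 CPM in cisplatin at 24 h. At 72 h it was between 614 and 639 CPM in DMSO and 608 and 660.2 CPM in cisplatin. PTPRC, the common leukocyte antigen, was at 0 in every library. The 8 epithelial markers with an entry summed to 305 to 314 CPM in DMSO and 300.0 to 306 CPM in cisplatin at 24 h, and to 279 to 281 and 298 to 306 CPM at 72 h. The 2 fibroblast markers with an entry, LUM and PDGFRB, summed to at most 0.175 CPM. With time the endothelial values were lower, as were those of most spliceosome genes, and the CD68 values were higher. Their part in the results was not tested. In bulk RNA, fewer cells of a kind and less RNA per cell cannot be told apart.

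The first comparison asked how the genes changed between 24 and 72 h in DMSO. Of 55 genes tested for exon counts, 43 fell and 3 rose (edgeR quasi-likelihood test, Benjamini-Hochberg adjusted p under 0.05), where 65.1% of all 10444 genes tested passed, 32.6% higher and 32.5% lower. The groups did not overlap for 45 of the 55, 4 higher and 41 lower, where 67.3% of all genes did not overlap (33.7% higher, 33.6% lower). The median log2 change of the 55 genes was -0.34, and that of all genes tested was 0.015. SNRNP70, which encodes the U1-70K protein, was not tested, because it had between 0 and 13 exon counts per library. The lower values were spread over the classes. The U2 class had 10 of 11 genes lower, the U5 and tri-snRNP class 11 of 12 and the helicases and late factors 7 of 8. The Sm and LSm rings had 5 of 7 each, the early recognition factors 3 of 4, the PRPF19 complex 2 of 4 and the U1 class 0 of the 2 tested.

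In cisplatin, the same comparison gave 42 lower and 0 higher genes of 55, against 63.5% of all genes (32% higher, 31.5% lower). The groups did not overlap for 43, all lower, against 67.2% of all genes (33.6% in each direction). The median was -0.41, and 0.017 over all genes. No library was shared between the comparison in DMSO and that in cisplatin. The 2 lists of lower genes had 39 in common, which is 90.7% of the DMSO list and 92.9% of the cisplatin list. The log2 changes of the 55 genes had r = 0.857 across genes between the treatments, as a description over genes that share their libraries, and 52 had the same sign. The overlap, r and signs were not computed over all genes, so they do not set the spliceosome genes apart. DHX16, SF1, SF3B1 and U2AF1 were called lower in DMSO and not in cisplatin, and BCAS2, SNRPB and SNRPC in cisplatin and not in DMSO. The difference between the changes in the 2 treatments, tested as an interaction, passed for 0 of 55 genes (9 at an unadjusted p under 0.05) and for 0 of all 10444 genes (985, or 9.43%).

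**Figure D2:**
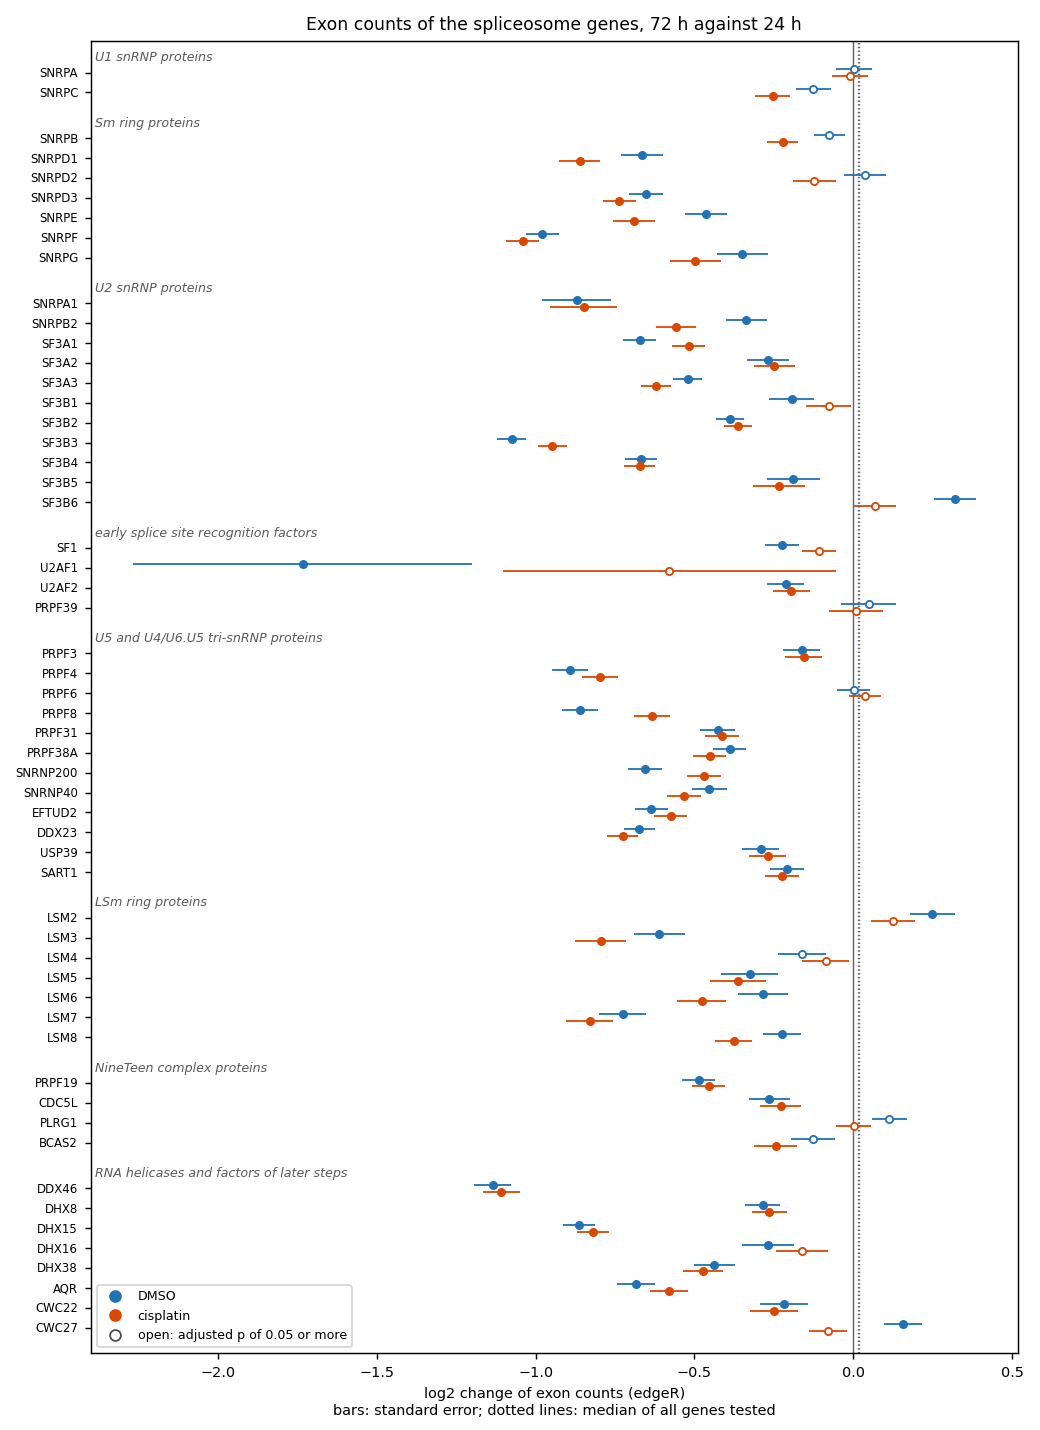
Log2 change of exon counts from 24 to 72 h for the 55 tested genes by class, in DMSO (blue) and cisplatin (orange), with the standard error as bars, filled points for adjusted p under 0.05 and dotted lines at the median of all genes tested (0.015 and 0.017). Most points of both colours lie left of 0, and U2AF1 has the widest bars.

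DDX46, on chromosome 5 (134758771 to 134855133, + strand), encodes the helicase also known as PRP5, which works when the U2 particle is placed on the branch point. It had 232, 248 and 256 CPM in the DMSO libraries at 24 h and 105, 114 and 115 CPM at 72 h. In cisplatin it had 256, 243 and 253 CPM at 24 h and 125, 109.5 and 113 CPM at 72 h. All libraries at 72 h were below all at 24 h. Its log2 change was -1.13 (SE 0.058) in DMSO and -1.11 (SE 0.058) in cisplatin, with adjusted p = 4.06e-14 and 6.47e-14 from edgeR. Another helicase, DHX15, which releases spent spliceosomes from the excised intron, changed by -0.86 (SE 0.050) and -0.82 (SE 0.050), from between 309 and 346 CPM at 24 h to between 175 and 187 CPM at 72 h.

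SF3B3, on chromosome 16 (70523791 to 70577670, + strand), encodes the large scaffold of the SF3B group. Its levels were 613, 608 and 616 CPM in DMSO at 24 h and 292, 285 and 293 CPM at 72 h, and in cisplatin 595, 622.5 and 608 CPM and then 329.8, 303 and 311 CPM. The groups of the 2 times lay far apart. The log2 change was -1.08 (SE 0.046) in DMSO and -0.95 (SE 0.046) in cisplatin, with adjusted p = 1.78e-15 and 1.82e-14. Its partners in the same particle moved less. SF3B4 changed by -0.67 in both treatments, SF3A1 by -0.67 and -0.52, SF3B2 by -0.39 and -0.36, and SF3B1, the subunit that clasps the branch point adenosine, by -0.19 (adjusted p = 0.0199) and -0.08 (adjusted p = 0.345). The DMSO call of SF3B1 was lost without replicate 1 at 24 h (-0.16, adjusted p = 0.0827) or at 72 h (-0.15, adjusted p = 0.0986).

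Within the Sm ring the genes also spread widely. SNRPF had 132, 131 and 130.4 CPM in DMSO at 24 h and 67.0, 67.0 and 65.1 CPM at 72 h. In cisplatin it had 132, 133 and 131 CPM and then 61.2, 65.3 and 65.4 CPM. Replicates differed by a few CPM and the times by about the size of the later value itself. Its log2 change was -0.98 (SE 0.053) and -1.04 (SE 0.052), with adjusted p = 8.72e-14 in DMSO and 3.08e-14 in cisplatin. SNRPD1 had 139, 146 and 152 CPM in DMSO at 24 h and 94.8, 101 and 79.9 CPM at 72 h, and in cisplatin 154, 146 and 149 CPM and then 82.3, 82.3 and 82.2 CPM. It changed by -0.66 and -0.86. SNRPD3 (-0.65 and -0.74) and SNRPE (-0.46 and -0.69) followed. SNRPD2 stayed below the threshold with 0.04 and -0.12, and SNRPB, with -0.08 and -0.22, passed in cisplatin (adjusted p = 0.000323). SNRPG, SNRPE and SNRPF have 20, 10 and 4 named pseudogenes, so reads of these small genes could have been split in counting.

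Of the proteins at the catalytic centre, PRPF8, which holds the active site, had 695, 642 and 655 CPM in DMSO at 24 h and 353, 362 and 379.8 CPM at 72 h. In cisplatin it had 629, 712 and 642 CPM at 24 h and 448, 401 and 426 CPM at 72 h. The later libraries were all below the earlier ones. PRPF8 changed by -0.86 (SE 0.056) in DMSO and -0.63 (SE 0.056) in cisplatin. Its partners SNRNP200, the helicase that unwinds U4 from U6, and EFTUD2, a GTPase, changed by -0.66 and -0.47, and by -0.64 and -0.57. PRPF4, a U4/U6 protein, changed by -0.89 and -0.80, while PRPF6, which bridges U5 to U4/U6, had 0.00 and 0.04 and did not pass.

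Some genes did not pass. SNRPA, the U1-A protein, had 159, 147 and 140.0 CPM in DMSO at 24 h and 159.6, 147 and 140.5 CPM at 72 h, and its log2 change was 0.00 (SE 0.057). In cisplatin it was -0.01. PRPF39, which helps U1 bind weak splice sites, had 0.05 and 0.01. PLRG1 had 0.11 and 0.00. The U1 class as a whole is represented by SNRPA and SNRPC, and SNRPC (-0.13 and -0.25) passed in cisplatin (adjusted p = 0.000369).

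The 3 genes that rose in DMSO were SF3B6, LSM2 and CWC27. SF3B6, a small branch point protein on chromosome 2 (24067586 to 24076373, - strand), had 202, 214 and 210.2 CPM at 24 h and 267, 283 and 231 CPM at 72 h. Its log2 change was 0.32 (SE 0.066, adjusted p = 0.00017 from edgeR). In cisplatin it had 223, 194 and 212 CPM and then 207, 231 and 218 CPM, with a change of 0.07 (adjusted p = 0.38), and the difference between the treatments was -0.25 (SE 0.093, adjusted p = 0.455). LSM2, a subunit of the U6 ring, had 71.6, 65.3 and 64.4 CPM and then 79.5, 86.0 and 73.8 CPM in DMSO, with a change of 0.25 (adjusted p = 0.00354), against 0.12 in cisplatin (adjusted p = 0.125). CWC27, a cyclophilin-like factor, rose by 0.16 (adjusted p = 0.0262), and this call was lost with DMSO replicate 1 or 2 at 24 h or replicate 2 at 72 h left out (adjusted p = 0.102, 0.0834 and 0.111). The other 5 genes of the U6 ring that passed in DMSO fell, from -0.23 for LSM8 to -0.73 for LSM7, and LSM4 had -0.16 (adjusted p = 0.0638).

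**Figure D3:**
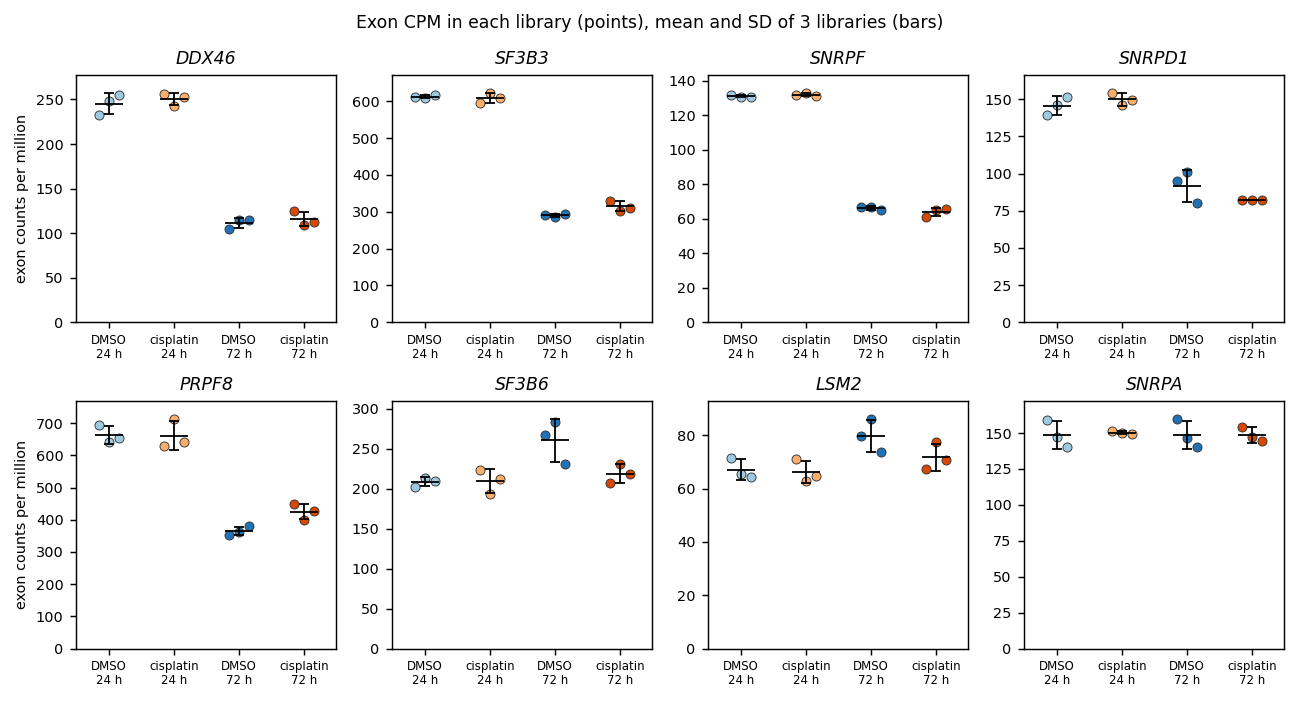
Exon CPM of 8 genes in each library (points, 3 per group), with mean and SD. DDX46, SF3B3, SNRPF, SNRPD1 and PRPF8 are lower in every 72 h library than in any 24 h library, SF3B6 and LSM2 are higher in the DMSO libraries at 72 h than at 24 h, and SNRPA overlaps in all groups.

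U2AF1, which reads the AG of the 3′ splice site, had the largest fitted change in DMSO, -1.73 (SE 0.53, adjusted p = 0.00657 from edgeR), but from 0.54, 1.75 and 0.60 CPM at 24 h and 0.40, 0.11 and 0.36 CPM at 72 h. The call was lost without DMSO replicate 2 at 24 h, where the change was -0.91 (adjusted p = 0.203). U2AF1 has a near-identical copy in the genome, between which reads can be split. Its larger partner U2AF2, which binds the polypyrimidine tract, fell by 0.21 on the log2 scale in DMSO (adjusted p = 0.00304) and by 0.19 in cisplatin (adjusted p = 0.00616). Leaving out a single library ended the call of 6 of the 46 genes in some fit in DMSO (CWC22, CWC27, PRPF3, SF3B1, SF3B5 and U2AF1) and of 2 of the 42 in cisplatin (PRPF3 and SF3B5). With exon counts thinned to the smallest library, 44 and 42 genes passed.

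Intron counts were tested for 54 genes, all but SF3B5 and LSM3. In DMSO, 13 were lower and 2 higher at 72 h, where 33.4% of 9618 genes passed (17.2% higher, 16.2% lower). In cisplatin 19 were lower and 2 higher, against 31.8% of all genes (16.4% higher, 15.4% lower). Leaving out 1 library ended the call of 7 of the 15 genes in some fit in DMSO and of 14 of the 21 in cisplatin. The medians were -0.23 and -0.29, and -0.011 and -0.016 over all genes. Of the lower genes, 8 were shared (61.5% of the DMSO list and 42.1% of the cisplatin list): EFTUD2, LSM6, PRPF19, PRPF8, SART1, SF3A2, SNRNP40 and SNRPE. PRPF19, the ubiquitin ligase of the PRPF19 complex, had 56.8, 60.5 and 79.0 intron CPM (counts per 1000000 TMM-scaled intron counts) in DMSO at 24 h and 37.96, 36.7 and 33.6 at 72 h. All later libraries were below all earlier ones. The calls of PRPF8 were lost in 2 fits in DMSO and 4 in cisplatin without 1 library, those of SART1 and SNRPE in 5 and 4 fits in DMSO, and those of LSM6 and EFTUD2 in 3 and 1 fits in cisplatin. The intron change of PRPF19 was -0.85 (SE 0.17) in DMSO and -0.68 (SE 0.16) in cisplatin, with adjusted p = 7.64e-05 and 0.000801. SNRNP40, a U5 protein, changed by -0.78 and -0.80.

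SF3B1 and PRPF39 were the 2 genes with higher intron counts in both treatments. SF3B1, on chromosome 2 (197388515 to 197435079, - strand), had 183, 208 and 227 intron CPM in DMSO at 24 h and 325, 319.96 and 293 at 72 h. In cisplatin it had 212, 162 and 185 and then 289.6, 313 and 301. The times did not overlap in either treatment. Its intron change was 0.60 (SE 0.11, adjusted p = 6.74e-06 from edgeR) in DMSO and 0.69 (SE 0.10, adjusted p = 3.84e-07) in cisplatin. PRPF39 changed by 0.41 (adjusted p = 0.0239) and 0.37 (adjusted p = 0.0391). The PRPF39 calls were lost when the intron counts were scaled by the exon library sizes, with changes of 0.33 and 0.29, and in 4 of the 6 fits without 1 library in each treatment (DMSO replicates 2 and 3 at both times, and cisplatin replicates 2 and 3 at 24 h and 1 and 2 at 72 h).

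The exon/intron ratio was tested for the 53 genes that reached 10 counts on both exons and introns in 3 or more of the libraries. Between 24 and 72 h in DMSO, 7 were lower and 0 higher, against 11.5% of 9380 genes (8.09% higher, 3.37% lower). In cisplatin 6 were lower and 2 higher, against 11.9% (8.36% higher, 3.56% lower). The medians of the 53 genes were -0.046 and -0.049, and those of all genes 0.100 and 0.108, so a gene at 0 stood below the median gene by about that shift. With exon and intron counts each scaled by their own TMM factors, the medians over all genes were 0.033 and 0.038. The calls were then 8 lower and 0 higher in DMSO and 8 lower and 1 higher in cisplatin. DDX46, DHX15, LSM7, SF3B1 and SF3B3 were lower in both treatments, DDX23 and SF3A3 in DMSO, and SNRPB2 in cisplatin, where LSM4 and SNRPA were higher.

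A lower ratio came with different movements of its parts. DHX15 had a ratio of 29.5, 31.1 and 21.5 exon counts per intron count in DMSO at 24 h and 14.6, 14.5 and 16.6 at 72 h. In cisplatin the ratio was 20.05, 20.8 and 24.9 and then 13.6, 14.8 and 12.7. Its exon counts fell while its intron counts had log2 changes of 0.03 and -0.09, and the ratio changed by -0.83 (SE 0.14, adjusted p = 0.000143 from edgeR) in DMSO and -0.66 (adjusted p = 0.00131) in cisplatin. DDX46 was alike, with ratios of 31.9, 34.6 and 22.0 and then 15.96, 16.1 and 16.5 in DMSO, intron changes of -0.23 and -0.15 that did not pass, and ratio changes of -0.84 (adjusted p = 0.000872) and -0.90 (adjusted p = 0.000263). Leaving out any single library kept the calls of DDX46, DHX15 and SF3B1 in both treatments and of SF3A3 in DMSO. It ended those of SF3B3 (DMSO replicate 1 or 2 at 24 h or 2 at 72 h), of DDX23 (any DMSO library but replicate 1 at 72 h) and of LSM7 (4 of 6 libraries in each treatment), with adjusted p between 0.0598 and 0.31.

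SF3B1 had the other pattern. Its ratio was 2.52, 2.26 and 1.78 in DMSO at 24 h and 1.20, 1.29 and 1.45 at 72 h, and in cisplatin 1.76, 2.29 and 2.41 and then 1.40, 1.25 and 1.26. The exon change was small and the intron counts rose. The ratio changed by -0.73 (SE 0.15, adjusted p = 0.00228) and -0.71 (SE 0.15, adjusted p = 0.00276). SF3B1 also had the lowest ratio in DMSO at 24 h (2.19 ± 0.38, SD, n = 3) apart from SNRNP70 and U2AF1, whose exon counts were few. The highest was that of SNRPD1 (799 ± 524, SD, n = 3), which rested on 3 to 7 intron counts per library. The lengths of exon and intron counted are not given in the sources used here, so levels and ratios of different genes are not on a common scale.

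SNRPF had exon and intron counts that fell together in DMSO. It had 26.3, 29.5 and 29.6 intron CPM at 24 h and 15.2, 16.98 and 13.4 at 72 h, a change of -0.92 (SE 0.26, adjusted p = 0.00411), beside -0.98 in exon counts. Its ratio changed by 0.01 (SE 0.18). In cisplatin the intron change was -0.53 (adjusted p = 0.0879) and the ratio change -0.41 (adjusted p = 0.214). The higher ratios of SNRPA (0.68, adjusted p = 0.0277) and LSM4 (0.49, adjusted p = 0.0396) in cisplatin came with lower intron counts (-0.61 and -0.51) and exon changes of -0.01 and -0.09. Without cisplatin replicate 2 at 24 h the ratio changes were 0.29 (adjusted p = 0.454) and 0.39 (adjusted p = 0.18). The SNRPA call was also lost without any single cisplatin library at 72 h, and that of LSM4 without replicate 3 at 24 h or replicate 1 or 2 at 72 h. SNRPB2 changed by -1.02 (adjusted p = 0.0146) from 12 to 59 intron counts per library in cisplatin, and without cisplatin replicate 2 at 24 h by -0.67 (adjusted p = 0.161). That call was also lost without replicate 2 at 72 h (-0.89, adjusted p = 0.0929).

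**Figure D4:**
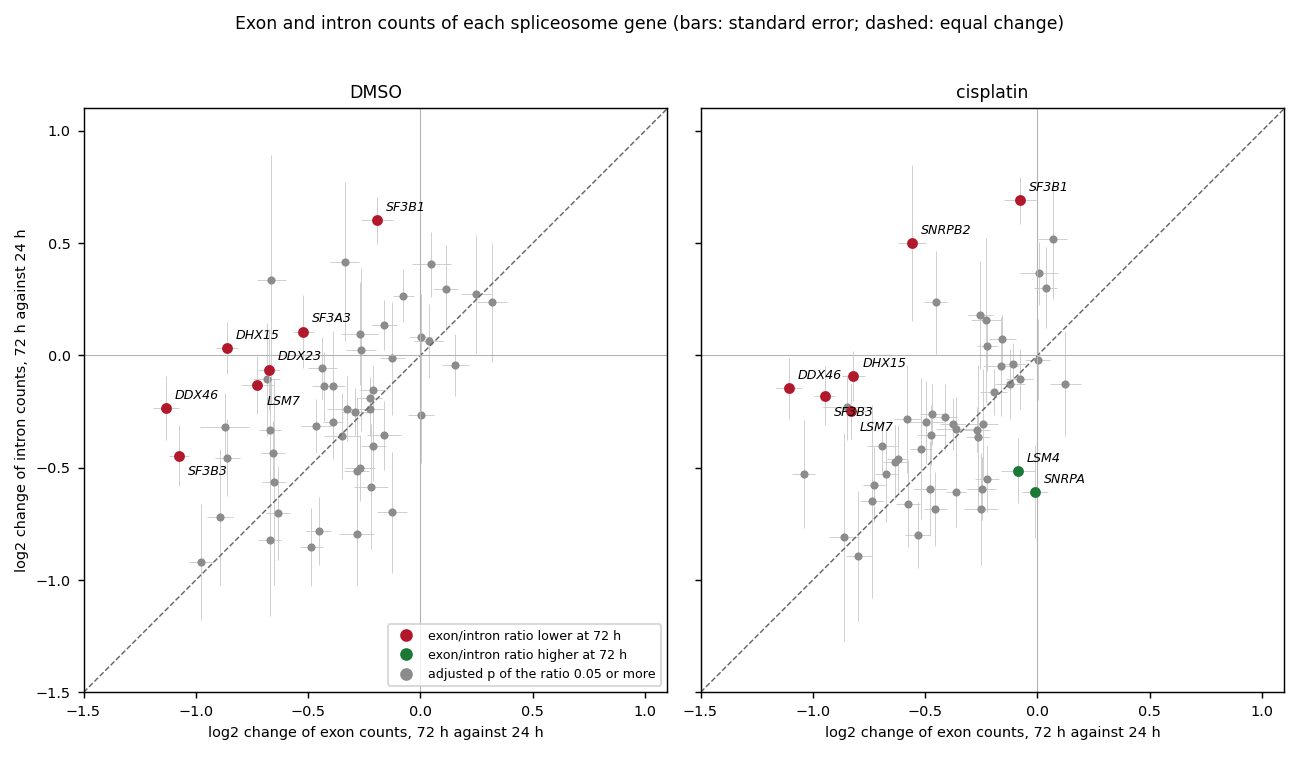
Log2 change of exon counts (x) against log2 change of intron counts (y) from 24 to 72 h, for 52 genes (all with a ratio test but U2AF1), in DMSO (left) and cisplatin (right), with standard errors. Genes with a lower exon/intron ratio (red) lie above the dashed line of equal change, SF3B1 at the top through its intron counts and DDX46, DHX15 and SF3B3 at the left through their exon counts.

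The second comparison asked what cisplatin did at each time. At 24 h, 0 of 55 genes had changed exon counts (edgeR, 0 at an unadjusted p under 0.05), and the background was 0% of 10444 genes. DESeq2 also gave 0. Groups did not overlap for 3 genes, LSM6, DHX8 and SNRPD3, all higher, and for 6.31% of all genes (3.36% higher, 2.95% lower). The log2 changes, U2AF1 aside, ran from -0.11 for SF3B1 to 0.14 for LSM6. The outermost bounds of their 95% intervals were -0.25 and 0.29, so larger changes in exon counts than these lay outside the interval of every one of the 54 genes. U2AF1 had -0.74 (SE 0.50), and 0.08 without DMSO replicate 2. All 7 Sm genes had values above 0 at 24 h, between 0.01 and 0.09, and all 7 had values below 0 at 72 h, between -0.01 and -0.17, with 0 of them past the threshold at either time.

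At 72 h, 0 of 55 genes passed (12 at an unadjusted p under 0.05, 6 higher and 6 lower), where 0.0287% of all genes did and 12.6% had an unadjusted p under 0.05. The changes ran from -0.25 for SF3B6 to 0.22 for PRPF8, U2AF1 (0.41, SE 0.57) aside, and the outermost bounds were -0.38 and 0.33. PRPF8 was higher in all 3 cisplatin libraries (448, 401 and 426 CPM) than in all 3 DMSO libraries (353, 362 and 379.8 CPM), a change of 0.22 (SE 0.055, adjusted p = 0.151). SF3B6 was at 207, 231 and 218 CPM with cisplatin and at 267, 283 and 231 CPM with DMSO, a change of -0.25 (SE 0.065, adjusted p = 0.151). The SF3B6 groups overlapped at 231 CPM. Both genes passed in DESeq2 (adjusted p = 0.0257 and 0.0337) and in edgeR with no filter on low counts (0.00924 and 0.00307). With no filter the changes were 0.22 (SE 0.053) and -0.25 (SE 0.056), close to those of the main fit. The share of all genes that passed in these 2 settings is not given here. SF3B6 also passed without DMSO replicate 3 at 72 h (-0.33, adjusted p = 0.0262). Groups did not overlap for 6 genes higher and 7 lower, where 17.9% of all genes did not overlap (8.44% higher, 9.51% lower).

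Intron counts gave 0 of 54 genes at 24 h (3 at an unadjusted p under 0.05, all higher) and 0 at 72 h (0 at an unadjusted p under 0.05) by edgeR, where 0.0208% and 0.0416% of all genes passed, and DESeq2 gave 0 at both times. An unadjusted p under 0.05 was found for 481 and 621 of all 9618 genes (6.46% at 72 h), so 3 of 54 at 24 h lay near the share of all genes. Groups did not overlap for 4 genes higher and 1 lower at 24 h, against 8.84% of all genes (4.35% higher, 4.49% lower), and for 2 each way at 72 h, against 13.5% (7.05% higher, 6.44% lower). Their error was larger. At 24 h, U2AF1 aside, the 95% intervals ran as far as -1.12 (CDC5L) and 2.03 (SNRPD1), with a bound beyond 1 in either direction for 4 of 53 genes and a median absolute bound of 0.47. SF3A3, DDX23 and LSM2 had the lowest unadjusted p at 24 h, with intron changes of 0.46, 0.45 and 0.58 and adjusted p = 0.895, 0.942 and 0.942.

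The exon/intron ratio gave 0 of 53 genes at 24 h by edgeR (8 at an unadjusted p under 0.05, all lower) and 0 at 72 h (2, both lower), where 0% and 0.0213% of 9380 genes passed. At an unadjusted p under 0.05 the share of all genes was 6.33% and 6.24%. DESeq2 gave 0 at both times. At each time 42 of 53 values lay below 0. The medians were -0.12 at 24 h and -0.11 at 72 h, and -0.086 and -0.084 over all genes, so by the median the 53 genes sat near all genes. At 24 h the 8 of 53 genes at an unadjusted p under 0.05 were a larger share than the 6.33% of all genes. SF3A3, a U2 protein, had ratios of 175, 175 and 170.3 in DMSO at 24 h and 117, 119.9 and 125 in cisplatin. The groups did not overlap, and the change was -0.53 (SE 0.14, adjusted p = 0.566). At 72 h it had 120.1, 113 and 121 in DMSO and 125, 113 and 103 in cisplatin, a change of -0.05. DDX23, a helicase of the tri-snRNP, had 64.96, 62.5 and 65.2 in DMSO and 52.6, 40.8 and 41.9 in cisplatin at 24 h, with a change of -0.53 (SE 0.17, adjusted p = 0.729), and -0.06 at 72 h. LSM2 had -0.71 (SE 0.27, adjusted p = 0.761) at 24 h. The largest fitted fall at 24 h, -1.02 (SE 0.44) for SNRPD1, rested on 3 to 12 intron counts per library. At 72 h, BCAS2, a protein of the PRPF19 complex, had -0.59 (SE 0.22, adjusted p = 0.708) and PRPF38A -0.47 (SE 0.20, adjusted p = 0.75). Groups did not overlap for 6 genes, all lower, at 24 h, against 9.5% of all genes (2.17% higher, 7.32% lower). At 72 h they did not overlap for 8 genes, 7 of them lower, against 14.4% (2.56% higher, 11.8% lower). The difference of the cisplatin effect between the times passed for 0 of 53 ratios (1 at an unadjusted p under 0.05). It also passed for 0 of all 9380 genes (4.55% at an unadjusted p under 0.05).

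**Figure D5:**
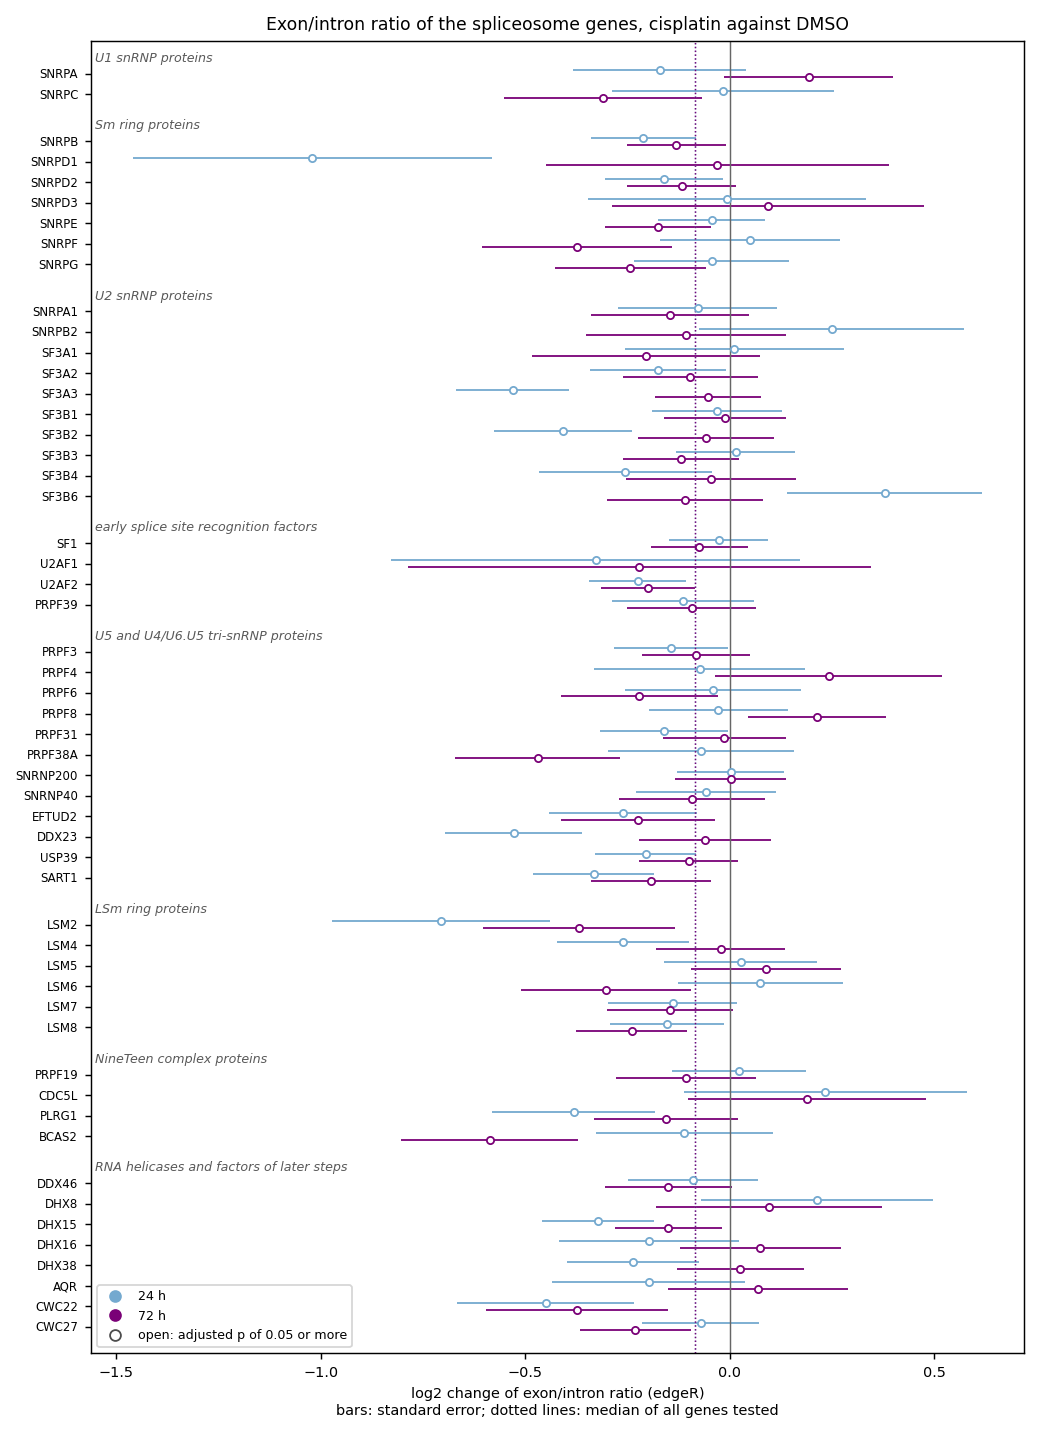
Log2 change of the exon/intron ratio with cisplatin for the 53 tested genes by class, at 24 h (light blue) and 72 h (purple), with the standard error as bars, open points for adjusted p of 0.05 or more and dotted lines at the median of all genes (-0.086 and -0.084). All points are open, and most lie left of 0 near the dotted lines.

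The logistic regression that the study used for the ratio treats each read pair as independent and leaves out the spread between replicates. It called 14 of 54 genes at 24 h, all lower, against 11.5% of 9678 genes (0.765% higher, 10.7% lower). They were DDX23, DHX15, DHX38, LSM2, LSM4, LSM7, PLRG1, SART1, SF3A2, SF3A3, SF3B2, SNRPB, U2AF2 and USP39. At 72 h it called BCAS2, CWC27, LSM8, PRPF38A and U2AF2, all lower, against 11.4% of 10011 genes (1.73% higher, 9.7% lower). Leaving out 1 library ended 12 of the 14 calls at 24 h in some fit. At 72 h it ended 4 of the calls, all but that of U2AF2. U2AF2 was thus the gene called at both times, with ratios of 23.1, 25.5 and 23.0 in DMSO and 20.5, 17.5 and 24.6 in cisplatin at 24 h, and of 24.3, 23.7 and 23.9 and then 20.9, 20.7 and 21.0 at 72 h. Its groups overlapped at 24 h and did not at 72 h. Without cisplatin replicate 2 at 24 h, the count at that time was 2, and U2AF2 was among the lost calls (-0.11, adjusted p = 0.404, from -0.29). When a dispersion per gene was estimated from the replicates (quasi-binomial model), the counts were 0 at both times. That model also removed nearly all calls between the times, with counts given in the last section. The share of all genes it called is not given here. Its 0 counts therefore cannot tell whether the logistic calls reflect only the spread between replicates. Between the times, the logistic regression called 22 genes in DMSO (7 higher, 15 lower), against 33.7% of all genes (22.5% higher, 11.1% lower). In cisplatin it called 21 (9 higher, 12 lower), against 40.6% (29% higher, 11.6% lower).

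Other parts of the splicing machinery were described by fixed lists. Of 51 other proteins of the major spliceosome, 24 fell and 8 rose in exon counts from 24 to 72 h in DMSO, where 32.5% of all genes tested fell and 32.6% rose, and 30 fell and 6 rose in cisplatin, where 31.5% and 32% did. WBP11 had the lowest adjusted p, with a fall from a mean of 205 to 105 CPM in DMSO (-0.96, SE 0.053), and PPIL3, a cyclophilin, rose by 0.78 (SE 0.093). The minor spliceosome, which removes the rare U12-type introns, was represented by 10 tested proteins, of which 6 rose and 1 fell in DMSO (median 0.26), against the same shares of all genes, and 2 rose and 1 fell in cisplatin (median 0.095). ZCRB1 rose from a mean of 46.8 to 75.6 CPM in DMSO (0.69, SE 0.062) and by 0.47 in cisplatin, RNPC3 rose by 0.38 and 0.30, and SNRNP48 fell by 0.36 and 0.32 on the log2 scale.

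Another list holds the factors that load the Sm ring and carry snRNPs into the nucleus. Of 15 tested, 11 fell and 2 rose in each treatment, with medians of -0.45 and -0.46, where 32.5% of all genes fell and 32.6% rose in DMSO and 31.5% and 32% in cisplatin. GEMIN5, which picks out snRNAs for the SMN complex, fell from a mean of 181 to 86.6 CPM in DMSO (-1.06, SE 0.052), and GEMIN4 fell by 0.98 on the log2 scale. GEMIN6 changed by -1.19 (SE 0.069) in cisplatin. GEMIN8, at low counts (a mean of 4.56 CPM at 24 h), rose by 0.81 and 0.95, and SNUPN, the import adaptor of snRNPs, by 0.37 and 0.26. Cisplatin against DMSO gave 0 called genes in exon counts on any of the 3 lists at either time by edgeR, with 10, 2 and 2 genes at an unadjusted p under 0.05 at 72 h and 0 at 24 h, where 12.6% and 2.49% of all genes had one.

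SNRNP70 had 496 to 1903 intron counts but at most 13 exon counts per library, so its exon/intron ratio was at most 0.0159. In GENCODE release 44, 24 of the 56 genes overlap another gene, 6 of them on the same strand, and 17 have named pseudogenes. The strand option of the counting is not given in the sources used here, so intron counts in the overlapping genes are uncertain.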

How the data were processed

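The 12 libraries were grouped by the treatment and time in the sample labels. Per the labels and methods, the authors checked reads with FastQC 0.11.8, trimmed them with Trim Galore 0.6.0, aligned them to GRCh38 with HISAT2 2.1.0 and deposited whole-number counts from HTSeq-count, on separate exon (intersection-strict) and intron (union) annotations made from Ensembl release 98, not normalized or pooled. Symbols and positions came from GENCODE release 44.

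Exon and intron counts were tested with edgeR 4.0.16 (quasi-likelihood, TMM, filterByExpr) in R 4.3.3, with the 12 libraries in a single fit, and p-values were Benjamini-Hochberg adjusted over all genes tested. For the ratio, a term per library and the exon and intron counts of each library were fitted together. The logistic regression used a Wald test, on genes where every one of the 6 libraries compared held 1 or more counts of both kinds. DESeq2 1.42.0 was an alternative. The tests were also run on simulated counts, whose outcome is not given here, and no result above rests on them. CPM values of the spliceosome genes and the other lists are per 1000000 exon (or intron) counts of the library after TMM scaling. Those of the cell type markers are per 1000000 exon counts without scaling. Python 3.11.15, numpy 2.4.6, pandas 2.3.3 and matplotlib 3.10.9 served for summaries and plots.

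The genes and lists were chosen with earlier results of these data known. Genes were named by size of change, up to 4 in each direction past the threshold and otherwise the 2 largest each way, any listed gene could be named to describe its class, and up to 2 genes each way came from every other list. The labels number triplicates without naming separate cultures, and the methods of the study state that the cells were grown in triplicate. The p-values measure the spread between these libraries. Their depth limits precision mostly in intron counts.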

Additional observations from a re-analysis of the deposited data

How the results depend on the processing

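The counts of called genes kept within 1.5 times of the reported ones under the other normalization, filters, tools, fits to the 6 libraries compared and thinning, with these exceptions. For exon counts, cisplatin at 72 h gave 2 genes with DESeq2 and 2 with no filter on low counts (PRPF8 and SF3B6). The share of all genes in those fits is not given here. The ratio between the times in cisplatin gave 5 genes with DESeq2. The quasi-binomial model gave 0, 0, 1 and 0 genes for cisplatin at 24 h and 72 h and for 72 h against 24 h in DMSO and in cisplatin. The cause was not tested. The thinning was chosen after seeing the data and gave 0, 0, 44 and 42 genes in exon counts, in the same order. With each library left out in turn, the counts ran from 0 to 1 for cisplatin at 72 h, 42 to 47 for time in DMSO and 40 to 44 for time in cisplatin in exon counts, and from 11 to 14 and 12 to 18 for time in intron counts. The ratio gave 4 to 6 and 5 to 8, and the logistic regression 2 to 16, 2 to 7, 15 to 21 and 17 to 23. The intron count was 12 without cisplatin replicate 2 at 24 h and 13 without replicate 2 at 72 h. The ratio count in DMSO was 4 without replicate 1 or 2 at 24 h or replicate 2 at 72 h, and that in cisplatin 5 without replicate 1 or 2 at 72 h. The logistic count at 24 h was 8 without DMSO replicate 1 or 2 and 2 without cisplatin replicate 2, and at 72 h 3 without DMSO replicate 3 and 2 without cisplatin replicate 3. A called value changed sign for LSM7 in the logistic regression for cisplatin at 24 h (-0.24, and 0.06 without cisplatin replicate 2). U2AF1 in exon counts (0.08 without DMSO replicate 2) and SNRPB2 in the ratio (-0.11 without cisplatin replicate 2), both for cisplatin at 24 h, and CDC5L in intron counts at 72 h (0.06 without cisplatin replicate 1) did so without being called.

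Replicate numbers did not pair the libraries. Correlations of same-numbered deviations ran from -0.073 to 0.10 over the comparisons of exon and intron counts. With the replicate number as a block, 0, 0, 47 and 42 genes passed in exon counts, 0, 0, 14 and 20 in intron counts and 0, 0, 7 and 7 in the ratio, in the same order. The logistic regression gave 12, 5, 22 and 22, and the interaction 0 for each measure. LSM4 lost its ratio call in cisplatin (0.49 with the block).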
